A study of Mus musculus with 15 samples.

Results

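Integrins and laminins were read here as 1 module of 37 genes of the 78298 listed in the count files. The members were every row whose gene symbol is that of an integrin alpha subunit (18 genes), an integrin beta subunit (8 genes), or a laminin alpha, beta or gamma chain (5, 3 and 3 genes). No expression value entered this rule. Of the 37 members, 28 passed the filter on low counts and were tested, 20 of 26 integrins and 8 of 11 laminins, and 26 of the tested members had a mean of at least 10 normalized counts.

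Laminins are secreted trimers of 1 alpha, 1 beta and 1 gamma chain, and they form the sheet of the basement membrane on which an epithelium rests. Integrins are membrane receptors made of 1 alpha and 1 beta subunit, and the pairing sets the ligand: Itga3, Itga6 and Itga7 pair into laminin receptors, Itga1, Itga2, Itga10 and Itga11 into collagen receptors, and Itga5, Itga8 and Itgav into receptors for the RGD motif of fibronectin and related proteins. In the intestine, laminin trimers with the Lama5 chain underlie crypts and villi, much of the laminin there is made by mesenchymal cells beneath the epithelium, and Itga6 with Itgb4 forms the hemidesmosome that ties epithelial cells to laminin.

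The libraries came from mouse small intestinal organoids, which are epithelial cultures grown from isolated crypts in a basement membrane gel, and each stable line had been made by lentiviral transduction under the L30 promoter. The conditions, with 3 libraries each, were Halo-NLS (L30prom_V5-Halo-GDGAGLIN-NLS_IRES_Puro, the control line with a nuclear Halo tag and no added SOX9), SOX9-mEGFP_budding (L30prom_Sox9-GDGAGLIN-mEGFP-V5_IRES_Puro), SOX9-Halo_budding (L30prom_Sox9-GDGAGLIN-Halo-V5_IRES_Puro), SOX9-mEGFP_spheroid and SOX9-Halo_spheroid. All 5 conditions therefore carried a transgene with puromycin resistance. The spheroids came from the same SOX9 lines at later passages, after the organoids had changed from a budding to a round shape. They also carried an added H2B transgene, L30prom_H2B-GDGAGLIN-mScarletI-V5_IRES_Neo in SOX9-mEGFP_spheroid and L30prom_H2B-GDGAGLIN-mEGFP-V5_IRES_Zeo in SOX9-Halo_spheroid, so that shape, passage and H2B transgene cannot be told apart. There was 1 stable line per construct, and the labels give no separate animals, so p-values measure the spread between cultures of a line.

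The libraries held between 28062722 and 40559766 counts in genes. Sox9, the overexpressed gene, had 515, 769 and 305 normalized counts (counts scaled to the mean effective library size) in Halo-NLS, and between 1336 and 23654 in the SOX9 lines, the lowest of them in SOX9-Halo_budding replicate 1. Counts from the transgene and from the native gene cannot be told apart. Epithelial markers such as Epcam, Cdh1 and Krt8 summed to at least 168090 normalized counts in every library, whereas the 7 intestinal markers, among them Cdx1, Cdx2 and Vil1, summed to 137130 to 172070 in Halo-NLS and to 4690 to 6769 in SOX9-Halo_spheroid. In SOX9-mEGFP_spheroid the intestinal markers summed to 61883 to 81525, between these ranges, so the spheroid lines differed widely in them. The 18 leukocyte markers summed to 112 to 395 normalized counts, with the highest sum in SOX9-mEGFP_spheroid replicate 3. Ptprc, their defining gene, stayed under 10 in every library of the 4 SOX9 conditions and reached 10 in at least 1 library of Halo-NLS. The 10 fibroblast and stroma markers summed to at most 122 in Halo-NLS and to at most 49.7 in the spheroids. Dcn, Dpt, Lum and Thy1 were under 10 in every library. Col1a1, Col1a2, Col3a1, Pdgfra, Pdgfrb and Postn each reached 10 in at least 1 library of Halo-NLS. In each spheroid condition Col1a1 alone reached 10 in at least 1 library. The largest number of genes with a count, 40375, was found in Halo-NLS replicate 3, and this library was also the highest for 5 of the 9 members that were not tested.

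Of the 28 tested members, 16 to 20 were called in the spheroids against Halo-NLS and 1 or 2 in the budding organoids. A gene was called when the adjusted p was at most 0.01, the fold change at least 2 and the mean at least 10 normalized counts. Against Halo-NLS, 14 members were higher and 6 lower in SOX9-Halo_spheroid, where 13.6% of all tested genes were called higher and 15.3% lower. In SOX9-mEGFP_spheroid 15 members were higher and 1 lower, against 15.3% and 12.1% of all genes. The median log2 fold change of the tested members was 1.87 and 1.75 in the respective spheroids, and that of all tested genes -0.01 and 0.03. SOX9-Halo_budding had 2 members called higher and none lower (2.49% and 1.26% of all genes), and SOX9-mEGFP_budding 1 higher and none lower (1.99% and 0.763%). Within a line, from budding to spheroid, 11 members rose and 5 fell in the SOX9-Halo line (10.5% and 14.7% of all genes), and 14 rose and 2 fell in the SOX9-mEGFP line (8.55% and 7.88%). The 14 include Itga8, with no counts in SOX9-mEGFP_budding and 4, 1 and 3 counts in SOX9-mEGFP_spheroid. Its mean over all libraries passed 10 only through SOX9-Halo_spheroid, where it had a mean of 117.8 normalized counts. It is also part of the totals of called members and differences below. Counting either direction, 20 members were called in SOX9-Halo_spheroid and 16 in SOX9-mEGFP_spheroid against Halo-NLS, 2 and 1 in the respective budding organoids, and 16 within either line, where the share of all genes was 28.9%, 27.5%, 3.75%, 2.76%, and 25.3% (SOX9-Halo line) and 16.4% (SOX9-mEGFP line). These comparisons share control libraries, so their counts are not independent of each other. In bulk RNA, fewer cells of a type and less RNA per cell cannot be told apart.

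The conditions did not overlap, in that every library of one lay above every library of the other, for 21 members between SOX9-Halo_spheroid and Halo-NLS and for 22 between SOX9-mEGFP_spheroid and Halo-NLS, where 54.8% and 56.5% of all tested genes had no overlap. Between budding organoids and Halo-NLS the count was 12 in either line (29.7% of all genes for SOX9-Halo_budding and 32.5% for SOX9-mEGFP_budding), and between spheroid and budding organoids it was 20 in the SOX9-Halo line and 21 in the SOX9-mEGFP line (52.8% and 46% of all genes). Of the 79 called differences between a pair of conditions, 1 rested on conditions that overlapped. The module divided by family: of the 7 tested laminins described below, all 7 were called higher in SOX9-mEGFP_spheroid against Halo-NLS and 5 in SOX9-Halo_spheroid, and none was lower in either. The 20 tested integrins were called higher 7 and 8 times and lower 1 and 6 times, in the same order.

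The alpha chain sets the receptor that a laminin trimer binds, and Lama5 was the most abundant alpha chain in each condition. Its normalized counts were 192, 420.0 and 251 in Halo-NLS, 383, 245 and 546 in SOX9-mEGFP_budding and 92.3, 324 and 344 in SOX9-Halo_budding. The spheroids held 9384, 18421 and 28242 in the SOX9-mEGFP line and 17910, 23503 and 20065 in the SOX9-Halo line. Each spheroid library was far above each budding or control library, and the 3 budding or control conditions overlapped with one another. From budding to spheroid Lama5 rose in the SOX9-Halo line (log2 fold change 6.34 ± 0.59 (SE), adjusted p = 5.6e-07) and in the SOX9-mEGFP line (log2 fold change 5.58 ± 0.57 (SE), adjusted p = 3.7e-06), and no difference between the spheroid lines was called (log2 fold change 0.13 ± 0.46 (SE), adjusted p = 0.87).

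Lama3, the alpha chain that joins Lamb3 in the trimer of epithelial anchoring structures, had 6.53, 1.15 and 17.6 normalized counts in Halo-NLS, 47.4, 21.8 and 14 in SOX9-mEGFP_budding and 11.1, 16.5 and 28.3 in SOX9-Halo_budding. It reached 630.1, 1142 and 1226 in SOX9-mEGFP_spheroid and 706, 643 and 976 in SOX9-Halo_spheroid, with every spheroid library at 630 or more and every other library at 47.4 or less. The rise from budding was called in the SOX9-Halo line (log2 fold change 5.38 ± 0.60 (SE), adjusted p = 3.9e-06) and in the SOX9-mEGFP line (log2 fold change 5.20 ± 0.59 (SE), adjusted p = 1.1e-05). Lama4, a chain best known from blood vessel and nerve basement membranes, was at or near 0 in the other conditions, with 0, 0 and 10.1 in Halo-NLS, 2.43, 0 and 2.34 in SOX9-mEGFP_budding and 0.796, 5.84 and 0.976 in SOX9-Halo_budding. It had 66.6, 108 and 124 normalized counts in SOX9-mEGFP_spheroid, at least 32.8-fold above SOX9-mEGFP_budding when that condition is set to 3 counts per library, and 335, 306 and 355 in SOX9-Halo_spheroid. Against Halo-NLS, Lama4 was called in SOX9-Halo_spheroid (log2 fold change 6.60 ± 0.81 (SE), adjusted p = 8.5e-06) and SOX9-mEGFP_spheroid (log2 fold change 4.86 ± 0.79 (SE), adjusted p = 0.00018), and Lama3 likewise (log2 fold change 6.52 ± 0.66 (SE), adjusted p = 1.4e-06 and log2 fold change 6.89 ± 0.67 (SE), adjusted p = 1.5e-06). Without Halo-NLS replicate 3, where the control counts of Lama4 were all found, the log2 fold changes of Lama3 were 7.66 and 8.03, and Lama4 was at 0 in the control. Without SOX9-Halo_budding replicate 2 the rise of Lama4 within the SOX9-Halo line was 8.38 (log2 fold change 7.01 ± 0.81 (SE), adjusted p = 5.3e-06 with all libraries). The SOX9-Halo spheroids lay above the SOX9-mEGFP spheroids in every library, with a difference that missed the threshold (log2 fold change 1.74 ± 0.57 (SE), adjusted p = 0.039). Endothelial markers had sums of 13.2 to 22.5 normalized counts in SOX9-Halo_spheroid, 28.0 to 51.4 in SOX9-mEGFP_spheroid and 43.1 to 118 in Halo-NLS. Of these 6 markers, Cdh5, Kdr, Tek, Pecam1 and Cldn5 were under 10 in every spheroid library. Vwf reached 10 in at least 1 library of each spheroid condition. Smooth muscle markers summed to 40.3 to 72.0 in SOX9-Halo_spheroid and to at most 27.7 in every other condition, with Acta2, Myh11, Cnn1 and Actg2 under 10 in every library. The higher sum came chiefly from Des, desmin, with 27.2, 55.8 and 51.3 normalized counts in SOX9-Halo_spheroid and under 10 in every other library, while Tagln reached 16.2 in SOX9-Halo_spheroid replicate 3 and was under 10 elsewhere. The 7 glia and neuron markers summed to 119 to 274 in Halo-NLS, 220 to 385 in SOX9-mEGFP_budding, 755 to 1264 in SOX9-Halo_budding, 412 to 1266 in SOX9-mEGFP_spheroid and 99.9 to 128 in SOX9-Halo_spheroid, where Lama4 was highest, and their defining gene Sox10 was under 10 in every library. The part of these cell types in the result was not tested. The remaining alpha chains, Lama1 and Lama2, had at most 28 and 16 counts in any library, with the highest normalized count of each in Halo-NLS replicate 3.

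Of the beta chains, Lamb3, the beta chain of the Lama3 trimer, was already abundant in the control, with 2454, 4042 and 2895 normalized counts in Halo-NLS, 2179, 1754 and 1781 in SOX9-mEGFP_budding and 1177, 2135 and 959 in SOX9-Halo_budding. It was higher in the spheroids, at 5447, 7105 and 7073 in the SOX9-mEGFP line and 5777, 5359.6 and 5058 in the SOX9-Halo line, and all 6 spheroid libraries lay above all 9 others. Relative to budding organoids the rise was called in the SOX9-Halo line (log2 fold change 1.92 ± 0.28 (SE), adjusted p = 4.6e-05) and the SOX9-mEGFP line (log2 fold change 1.78 ± 0.28 (SE), adjusted p = 0.00017). Relative to Halo-NLS it was called in SOX9-mEGFP_spheroid (log2 fold change 1.06 ± 0.27 (SE), adjusted p = 0.0049) and fell short in SOX9-Halo_spheroid (log2 fold change 0.79 ± 0.27 (SE), adjusted p = 0.025). The call in SOX9-mEGFP_spheroid was lost, at an adjusted p of 0.019 to 0.021, without Halo-NLS replicate 1 or 3 or SOX9-mEGFP_spheroid replicate 2 or 3.

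Lamb2, a beta chain of Lama5 trimers, went from 62.7, 137 and 172 normalized counts in Halo-NLS, 66.8, 106 and 193 in SOX9-mEGFP_budding and 53.3, 151 and 93.7 in SOX9-Halo_budding to 2987, 3916 and 5031 in SOX9-mEGFP_spheroid and 3385, 3755 and 3187 in SOX9-Halo_spheroid. The rise was called in the SOX9-Halo line (log2 fold change 5.12 ± 0.49 (SE), adjusted p = 8.0e-07) and the SOX9-mEGFP line (log2 fold change 5.02 ± 0.49 (SE), adjusted p = 2.5e-06), and the test of the difference between these rises gave a log2 value of 0.10 ± 0.59 (SE), adjusted p = 0.95. Lamb1, the other beta chain of Lama5 trimers, rose in 1 line. Its normalized counts were 23.5, 35.6 and 33.9 in Halo-NLS, 104, 39.5 and 27.3 in SOX9-mEGFP_budding, 19.9, 44.8 and 17.6 in SOX9-Halo_budding and 55.7, 44.5 and 27 in SOX9-Halo_spheroid, ranges that all overlapped. SOX9-mEGFP_spheroid held 1339, 2164 and 3312, above every other library. Without SOX9-mEGFP_budding replicate 1, the budding library with most Lamb1, the rise in the SOX9-mEGFP line was 6.09 and the difference between the lines -5.47 on the log2 scale. With all libraries, the rise in the SOX9-mEGFP line (log2 fold change 5.33 ± 0.56 (SE), adjusted p = 4.8e-06) and the change in the SOX9-Halo line (log2 fold change 0.62 ± 0.52 (SE), adjusted p = 0.37) differed by a log2 value of -4.71 ± 0.73 (SE), adjusted p = 0.00042. Of the 3 beta chains, Lamb1 was the 1 that passed this test.

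Lamc1, the gamma chain of most trimers, had 618, 1288 and 591 normalized counts in Halo-NLS, 1333, 1243 and 1629 in SOX9-mEGFP_budding, 659.5, 1844 and 1666 in SOX9-Halo_budding, 3525, 5129 and 7365 in SOX9-mEGFP_spheroid and 5395, 7876 and 9706 in SOX9-Halo_spheroid. It rose from budding to spheroid in the SOX9-Halo line (log2 fold change 2.46 ± 0.41 (SE), adjusted p = 0.00019) and the SOX9-mEGFP line (log2 fold change 1.93 ± 0.41 (SE), adjusted p = 0.002). The latter call was lost without SOX9-mEGFP_budding replicate 1 or 2 or SOX9-mEGFP_spheroid replicate 3, at an adjusted p of 0.011 to 0.015. Lamc1 lies on chromosome 1 in GRCm39, at 153094597-153208774. Lamc3, a further gamma chain, had at most 8 counts in any library.

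**Figure D1:**
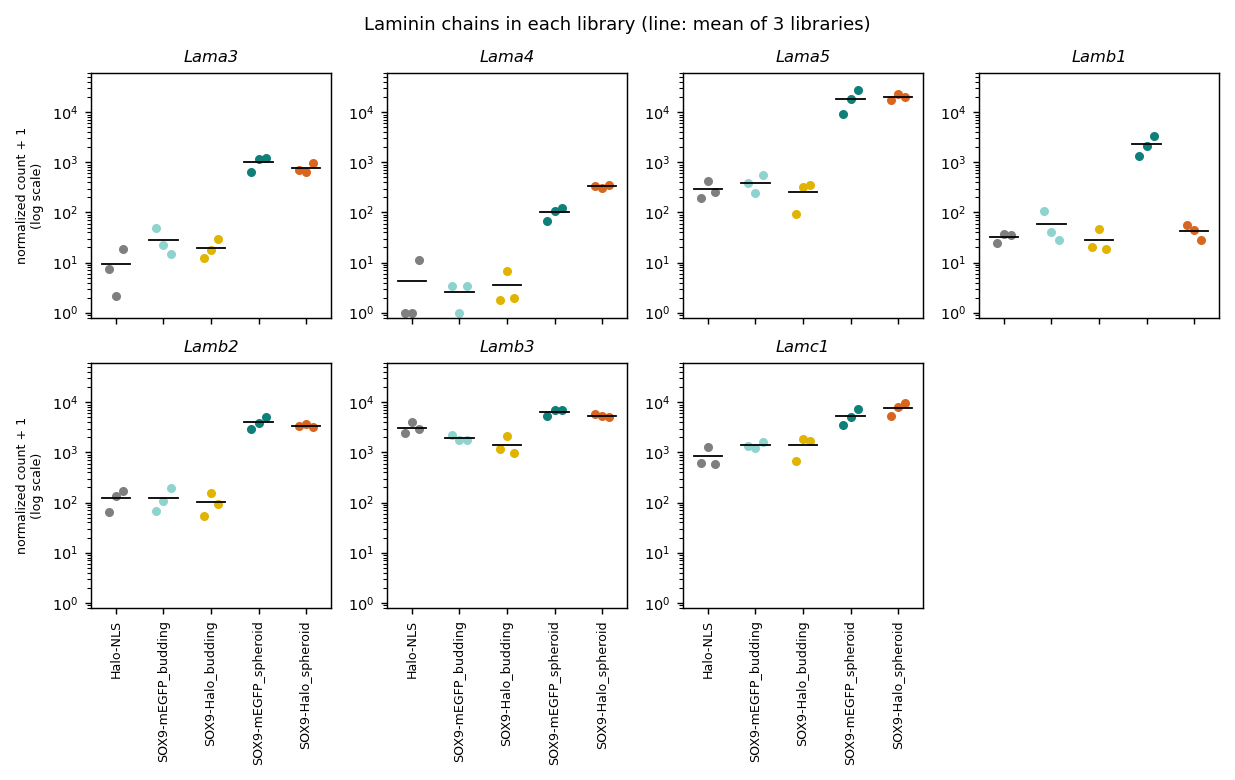
Normalized counts, with 1 added, of 7 laminin chains on a log axis, with 1 point per library, 3 libraries per condition and a line at the mean. Lama3, Lama4, Lama5 and Lamb2 step up in the spheroids of both lines, while Lamb1 steps up in SOX9-mEGFP_spheroid alone, with 1339 to 3312 normalized counts against at most 104 in every other library.

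Divided by the length of the canonical transcript, chains can be compared with each other. In counts per kilobase of transcript and per 1000000 counts of effective library size, the alpha chains summed to 0.856 ± 0.290 (SD, n = 3) in Halo-NLS, 1.11 ± 0.397 in SOX9-mEGFP_budding and 0.732 ± 0.383 in SOX9-Halo_budding, and to 51.6 ± 25.4 in SOX9-mEGFP_spheroid and 56.9 ± 7.14 in SOX9-Halo_spheroid. Lama5 made up 87.4 ± 14.3% of this sum in Halo-NLS and 93.9 ± 1.27% and 93.7 ± 1.33% in the SOX9-mEGFP and SOX9-Halo spheroids. In the control the alpha sum stood far below the beta sum of 17.5 ± 4.55, whereas in the spheroids these sums lay closer together, with beta at 67.7 ± 14.9 and 47.3 ± 2.82 in the same order.

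The mix of beta chains also differed between the conditions. Lamb3 made up 95.4 ± 1.69% of beta chains in Halo-NLS, 52.4 ± 5.21% in SOX9-mEGFP_spheroid and 61 ± 2.10% in SOX9-Halo_spheroid, although its own counts were higher. Lamb2 took up 30.9 ± 1.55% and 38.5 ± 2.14% there, from 3.72 ± 1.59% in Halo-NLS. Lamb1 had 16.7 ± 3.87% in SOX9-mEGFP_spheroid and 0.456 ± 0.134% in SOX9-Halo_spheroid. Shares were not tested, and they cover RNA and not assembled trimers. They also depend on the length used. With the union of exons, levels in SOX9-mEGFP_spheroid were 23.7 for Lamb3, 19.5 for Lamb2 and 6.31 for Lamb1, against 35.0, 21.0 and 11.7 with canonical transcripts.

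**Figure D2:**
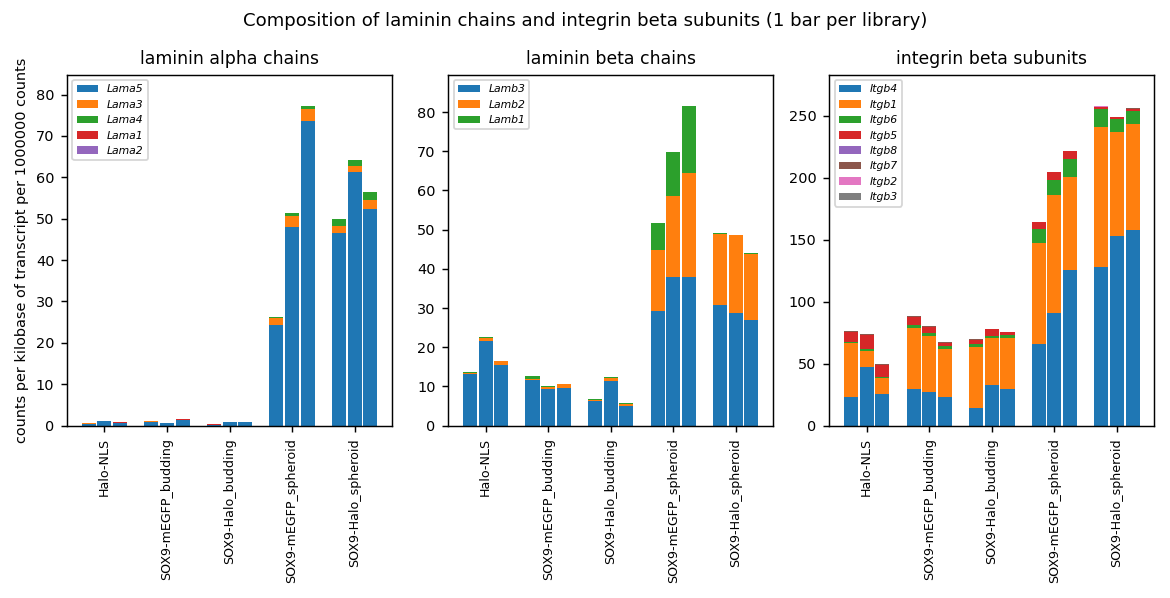
Counts per kilobase of canonical transcript and per 1000000 counts of effective library size, stacked by gene, for laminin alpha and beta chains and integrin beta subunits, with 1 bar per library and 3 bars per condition. The alpha panel is almost empty outside the spheroids and almost all Lama5 within them, and the beta panel shows Lamb2 joining Lamb3 in both spheroid lines and Lamb1 in SOX9-mEGFP_spheroid.

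The start regions of Lama5, Lamb2 and Lamb1 are shown because the first pair rose in both lines and the last in 1. They are RefSeq sequences of build GRCm38.p6, running from 250 bases before to 50 bases after the transcription start in the direction of the gene. Capitals mark the letters ACAAT, the core of SOX binding motifs, on either strand (ATTGT where it lies on the reverse strand). Lama5 is chr2:180225810-180226109, minus strand; Lamb2 is chr9:108479612-108479911, plus strand; Lamb1 is chr12:31265043-31265342, plus strand.
Lama5: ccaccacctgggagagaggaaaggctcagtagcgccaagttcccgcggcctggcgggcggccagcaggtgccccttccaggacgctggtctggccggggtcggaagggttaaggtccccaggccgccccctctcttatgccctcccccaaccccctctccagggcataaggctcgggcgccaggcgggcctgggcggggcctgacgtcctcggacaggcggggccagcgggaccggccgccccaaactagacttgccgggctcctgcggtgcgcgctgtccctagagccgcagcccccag
Lamb2: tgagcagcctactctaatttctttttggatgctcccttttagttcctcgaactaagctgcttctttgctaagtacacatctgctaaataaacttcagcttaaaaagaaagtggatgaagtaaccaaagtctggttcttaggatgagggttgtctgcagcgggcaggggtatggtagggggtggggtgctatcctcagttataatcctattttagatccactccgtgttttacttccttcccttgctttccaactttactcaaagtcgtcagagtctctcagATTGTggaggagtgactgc
Lamb1: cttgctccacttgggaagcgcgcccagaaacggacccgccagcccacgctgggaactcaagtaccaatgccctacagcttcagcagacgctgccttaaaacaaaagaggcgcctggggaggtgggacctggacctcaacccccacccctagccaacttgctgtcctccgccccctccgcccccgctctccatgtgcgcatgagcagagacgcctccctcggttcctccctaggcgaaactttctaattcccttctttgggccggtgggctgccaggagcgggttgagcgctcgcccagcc
Lamb2 held 1 match, at base 282 of the window, which is base 32 of the transcript, and Lama5 and Lamb1 held none. GC content was 72.7% for Lama5, 44% for Lamb2 and 63.7% for Lamb1, where the median of all promoters was 52.7%. Promoters were found for 23 members, with 26 start regions, and 6 of these held ACAAT, 3 the TEAD motif GGAATG and 3 the AP-1 motif TGANTCA on either strand. Of 32851 promoters of the same length, 31%, 14.7% and 7.81% held the respective motif. None of these motifs contains another, and a match is a description of the window, not of binding.

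Turning to the receptors, Itga6 was the member called in most comparisons with the control, and the 1 that was called in each of the 4 SOX9 conditions. This subunit pairs with Itgb4 in hemidesmosomes and with Itgb1 elsewhere, and it had 2190.5, 1216 and 1043 normalized counts in Halo-NLS, 3529, 3950 and 6989.9 in SOX9-mEGFP_budding and 4077, 3530.1 and 6000 in SOX9-Halo_budding. The spheroids held 8509, 9499 and 10703 in the SOX9-mEGFP line and 6447, 5954 and 6509.9 in the SOX9-Halo line. All 12 SOX9 libraries lay above all 3 control libraries. Relative to Halo-NLS the difference was log2 fold change 1.70 ± 0.31 (SE), adjusted p = 0.0041 in SOX9-mEGFP_budding and log2 fold change 1.61 ± 0.31 (SE), adjusted p = 0.0053 in SOX9-Halo_budding. Both calls rested on single libraries: without Halo-NLS replicate 2 or 3 they were lost at an adjusted p of 0.022 to 0.030, as they were without SOX9-mEGFP_budding replicate 3 (0.014) or SOX9-Halo_budding replicate 1 or 3 (0.013 and 0.036). In the spheroids the difference was log2 fold change 2.69 ± 0.32 (SE), adjusted p = 1.1e-05 in the SOX9-mEGFP line and log2 fold change 2.09 ± 0.32 (SE), adjusted p = 6.7e-05 in the SOX9-Halo line, and those calls held without any 1 library. From budding to spheroid Itga6 was not called in the SOX9-mEGFP line (log2 fold change 0.99 ± 0.31 (SE), adjusted p = 0.024) or the SOX9-Halo line (log2 fold change 0.47 ± 0.30 (SE), adjusted p = 0.24).

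Itgb4, the hemidesmosome partner of Itga6, had 4821, 9875 and 5302 normalized counts in Halo-NLS, 6142, 5598 and 4846 in SOX9-mEGFP_budding and 2903, 6847 and 6111 in SOX9-Halo_budding, which overlapped. It reached 13688, 18920 and 26286 in SOX9-mEGFP_spheroid and 26755, 31902 and 32930 in SOX9-Halo_spheroid, and each spheroid library lay above each other library. The rise from budding was log2 fold change 1.83 ± 0.34 (SE), adjusted p = 0.00081 in the SOX9-mEGFP line and log2 fold change 2.53 ± 0.35 (SE), adjusted p = 3.2e-05 in the SOX9-Halo line. In the budding SOX9 organoids, where Itga6 was called higher than in Halo-NLS, Itgb4 was not (log2 fold change -0.27 ± 0.33 (SE), adjusted p = 0.58 in SOX9-mEGFP_budding, log2 fold change -0.33 ± 0.33 (SE), adjusted p = 0.47 in SOX9-Halo_budding). Against Halo-NLS the Itgb4 call in SOX9-mEGFP_spheroid (log2 fold change 1.56 ± 0.34 (SE), adjusted p = 0.0017) was lost at an adjusted p of 0.011 without Halo-NLS replicate 3 or SOX9-mEGFP_spheroid replicate 3. Of the exonic bases of Itgb4, 17.5% overlap other genes, chiefly Galk1 on the opposite strand, and reads there were counted without strand and set aside as ambiguous. Galk1 itself fell from 6589 ± 1475 in Halo-NLS to 2292 ± 530.3 (SD, n = 3) in SOX9-Halo_spheroid.

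Itgb1, the most widely shared beta subunit, had 7276, 2242 and 2251 normalized counts in Halo-NLS, 8268, 7702 and 6558 in SOX9-mEGFP_budding, 8365, 6324 and 6973 in SOX9-Halo_budding, 13754, 16084 and 12609 in SOX9-mEGFP_spheroid and 18937, 14191 and 14427 in SOX9-Halo_spheroid. Halo-NLS replicate 1 stood above the other control libraries and within the range of the budding organoids. The spheroids were higher than the control (log2 fold change 1.85 ± 0.37 (SE), adjusted p = 0.00085 in the SOX9-mEGFP line, log2 fold change 2.01 ± 0.37 (SE), adjusted p = 0.00037 in the SOX9-Halo line), and without Halo-NLS replicate 1 these log2 fold changes were 2.66 and 2.83. In a fit of only the libraries compared, the call in SOX9-mEGFP_spheroid was lost (adjusted p = 0.017). From budding to spheroid Itgb1 was not called in the SOX9-Halo line (log2 fold change 1.13 ± 0.36 (SE), adjusted p = 0.019) or the SOX9-mEGFP line (log2 fold change 0.91 ± 0.36 (SE), adjusted p = 0.072). With the replicate number as a block within the SOX9-Halo line, Itgb1 passed the threshold there, at a log2 fold change of 1.09 and an adjusted p of 0.0012. It was also called there with the block over all libraries, without a low-count filter and with only the libraries compared. The looser threshold of an adjusted p of at most 0.05 was passed too. Itgb1 was not called there with other scalings, with DESeq2 or with any 1 library left out.

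Itga3, a laminin receptor subunit that pairs with Itgb1, was called in no comparison, as were Itga2b, Itga10, Itgae and Itgal, whose means were under 50 normalized counts in every condition. It had 5417, 10224 and 5577 normalized counts in Halo-NLS, 6423, 4612 and 2953 in SOX9-mEGFP_budding, 3149, 5818 and 3604 in SOX9-Halo_budding, 4868, 4867 and 6578 in SOX9-mEGFP_spheroid and 6362, 8422 and 9456 in SOX9-Halo_spheroid, and the control overlapped with each SOX9 condition. Its difference from Halo-NLS was log2 fold change 0.19 ± 0.32 (SE), adjusted p = 0.65 in SOX9-Halo_spheroid and log2 fold change -0.38 ± 0.32 (SE), adjusted p = 0.34 in SOX9-mEGFP_spheroid. Itga7, the laminin receptor subunit known mainly from muscle, differed between the lines. It had 592, 729 and 493 in Halo-NLS, 963, 642 and 234 in SOX9-mEGFP_budding and 188, 409 and 79 in SOX9-Halo_budding, then 1649, 1704 and 1409 in SOX9-mEGFP_spheroid and 81.7, 47.3 and 45.9 in SOX9-Halo_spheroid. The SOX9-mEGFP spheroids were above and the SOX9-Halo spheroids at or below every other condition, except that SOX9-Halo_budding replicate 3 lay within the SOX9-Halo spheroid range. Itga7 was lower in SOX9-Halo_spheroid than in Halo-NLS (log2 fold change -3.38 ± 0.56 (SE), adjusted p = 0.00017) and than in SOX9-mEGFP_spheroid (log2 fold change -4.77 ± 0.60 (SE), adjusted p = 2.9e-05). The fall within the SOX9-Halo line (log2 fold change -1.95 ± 0.54 (SE), adjusted p = 0.0089) is the 1 call of the module whose conditions overlap. It was lost without any 1 of SOX9-Halo_budding replicates 1 and 2 and SOX9-Halo_spheroid replicates 1, 2 and 3 (adjusted p of 0.013 to 0.067), and its log2 fold change was -1.20 without SOX9-Halo_budding replicate 2. Its change within the SOX9-mEGFP line was not called (log2 fold change 1.37 ± 0.51 (SE), adjusted p = 0.058), and the test of the difference between the lines gave a log2 value of -3.33 ± 0.74 (SE), adjusted p = 0.007, a call lost at an adjusted p of 0.012 to 0.024 without replicate 1 or 2 of SOX9-Halo_budding, 2 or 3 of SOX9-mEGFP_budding or SOX9-Halo_spheroid, or any 1 of the SOX9-mEGFP_spheroid libraries, with a log2 value of -2.58 without SOX9-Halo_budding replicate 2. With the replicate number as a block within the SOX9-Halo line, whose same-numbered libraries deviated together, the fall there was -1.74 at an adjusted p of 0.022.

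Per length, the order of Itga3 and Itga6 by mean depended on which length was used in the budding organoids and SOX9-mEGFP_spheroid. In Halo-NLS and SOX9-Halo_spheroid Itga3 was ahead with both lengths. In SOX9-Halo_spheroid it had 48.5 counts per kilobase and 1000000 counts against 42.6 for Itga6 with canonical transcripts. With the union of all exons these levels were 41.4 and 16.5. With canonical transcripts, Itga3 made up 70.1 ± 11% of alpha subunits in Halo-NLS and Itga6 17.4 ± 8.09%, while in SOX9-mEGFP_spheroid Itga3 made up 26.4 ± 2.08% and Itga6 52.5 ± 0.709%. With the union of all exons, which is 11382 bases for Itga6 against 4413 for its canonical transcript, Itga3 stayed ahead, at 40.0% against 36.1%. The direction was alike with both: the mean share of Itga6 was higher and that of Itga3 lower in each SOX9 condition than in Halo-NLS. Among beta subunits Itgb4 and Itgb1 together made up most of the sum, with Itgb4 at 48.5 ± 17% in Halo-NLS, 47 ± 8.73% in SOX9-mEGFP_spheroid and 57.5 ± 6.75% in SOX9-Halo_spheroid, and Itgb1 at 34 ± 20.3%, 43.5 ± 8.51% and 37.1 ± 5.81%. The sum of all beta subunits was 66.5 ± 14.7 counts per kilobase and 1000000 counts in Halo-NLS, 197 ± 29.6 in SOX9-mEGFP_spheroid and 254 ± 4.30 in SOX9-Halo_spheroid.

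The collagen receptor subunits Itga1 and Itga2 were close to 0 in 1 spheroid line and kept in the other. Itga2, whose receptor with Itgb1 binds fibrillar collagen, had 548, 166 and 153 normalized counts in Halo-NLS, 633, 694 and 1120.5 in SOX9-mEGFP_budding, 442, 405 and 856 in SOX9-Halo_budding and 1239.8, 1144 and 1184 in SOX9-mEGFP_spheroid, but 8.29, 0.946 and 4.501 in SOX9-Halo_spheroid. Itga1, whose receptor with Itgb1 favours the collagen of basement membranes, had 163, 50.5 and 113 in Halo-NLS, 181, 178 and 332.5 in SOX9-mEGFP_budding, 234, 170.3 and 283 in SOX9-Halo_budding and 256, 301 and 269 in SOX9-mEGFP_spheroid, but 4.74, 0.946 and 1.80 in SOX9-Halo_spheroid. The SOX9-Halo spheroids held 7, 1 and 5 counts of Itga2 and 4, 1 and 2 counts of Itga1, so that fitted fold changes for them are imprecise. For either gene, every SOX9-Halo spheroid library was under 10 and every other library at 50.5 or above.

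Within the SOX9-Halo line the fall from budding to spheroid was log2 fold change -6.97 ± 0.68 (SE), adjusted p = 9.0e-07 for Itga2 and log2 fold change -6.53 ± 0.58 (SE), adjusted p = 3.6e-07 for Itga1. In the SOX9-mEGFP line neither was called, at log2 fold change 0.54 ± 0.47 (SE), adjusted p = 0.46 for Itga2 and log2 fold change 0.25 ± 0.39 (SE), adjusted p = 0.71 for Itga1. The test of the difference between the lines gave a log2 value of -7.52 ± 0.82 (SE), adjusted p = 1.9e-05 for Itga2 and of -6.78 ± 0.70 (SE), adjusted p = 1.2e-05 for Itga1. Against Halo-NLS, Itga2 was higher in SOX9-mEGFP_spheroid (log2 fold change 2.04 ± 0.49 (SE), adjusted p = 0.0033), a call that was lost without Halo-NLS replicate 2 or 3 (adjusted p of 0.016 and 0.017), with a log2 fold change of 2.90 without Halo-NLS replicate 1. Without SOX9-Halo_spheroid replicate 1, the library with most counts of both genes among these spheroids, the falls within the SOX9-Halo line were -7.61 for Itga2 and -7.24 for Itga1 on the log2 scale.

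These genes are neighbours on chromosome 13 in GRCm39, Itga2 at 114969617-115068636 and Itga1 at 115089632-115238677, both on the minus strand. Their neighbours were not near 0 in SOX9-Halo_spheroid. Pelo, a ribosome rescue factor, had 72.3, 76.6 and 98.1 normalized counts there and 129, 178 and 152 in Halo-NLS. Mocs2, a gene of molybdenum cofactor synthesis on the opposite strand, had 917, 862 and 842 in SOX9-Halo_spheroid and 1089, 1168 and 629 in SOX9-mEGFP_spheroid, against 3899, 2955 and 2811 in Halo-NLS. The fall of Mocs2 was thus called in both spheroid lines (log2 fold change -1.88 ± 0.28 (SE), adjusted p = 6.6e-05 and log2 fold change -1.74 ± 0.28 (SE), adjusted p = 0.00017). Of the exonic bases of Itga1, 14.1% are shared with other genes. The other collagen receptor subunits showed no such pattern: Itga10, with 35.7% of its exonic bases shared with other genes, had means of 26.2 to 48.8 normalized counts in the 5 conditions and was called in no comparison, and Itga11 had at most 11 counts in any library.

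Among the subunits that recognise RGD, Itgav and Itgb6 rose. Itgav, the alpha partner of Itgb5, Itgb6 and Itgb8, had 205, 71.1 and 80.4 normalized counts in Halo-NLS, 271, 266 and 471 in SOX9-mEGFP_budding and 392, 296 and 682 in SOX9-Halo_budding, and 1109, 1922 and 2401 in SOX9-mEGFP_spheroid and 893, 811 and 808 in SOX9-Halo_spheroid. All 12 SOX9 libraries lay above all 3 control libraries. Itgav was higher than Halo-NLS in SOX9-mEGFP_spheroid (log2 fold change 3.93 ± 0.47 (SE), adjusted p = 1.0e-05) and SOX9-Halo_spheroid (log2 fold change 2.82 ± 0.45 (SE), adjusted p = 0.0001), with log2 fold changes of 4.58 and 3.47 without Halo-NLS replicate 1. From budding to spheroid it was called in the SOX9-mEGFP line (log2 fold change 2.43 ± 0.43 (SE), adjusted p = 0.00055) and not in the SOX9-Halo line (log2 fold change 0.87 ± 0.41 (SE), adjusted p = 0.11), and the difference between the lines was not called (log2 value -1.55 ± 0.59 (SE), adjusted p = 0.1).

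Itgb6, an epithelial subunit whose receptor with Itgav can activate latent TGF-beta, had 227, 177 and 118 normalized counts in Halo-NLS, 379, 316 and 318 in SOX9-mEGFP_budding and 293, 364 and 404 in SOX9-Halo_budding. It reached 1765, 1984 and 2315 in SOX9-mEGFP_spheroid and 2414, 1638 and 1717 in SOX9-Halo_spheroid, in separate ranges for control, budding and spheroid. The rise from budding was log2 fold change 2.58 ± 0.26 (SE), adjusted p = 3.2e-06 in the SOX9-mEGFP line and log2 fold change 2.44 ± 0.26 (SE), adjusted p = 1.9e-06 in the SOX9-Halo line. Itgb8, which with Itgav also activates latent TGF-beta, was low in most conditions, with 1.31, 0 and 8.80 in Halo-NLS, 0, 0 and 10.1 in SOX9-mEGFP_budding, 0.796, 0.973 and 20.5 in SOX9-Halo_budding and 9.76, 22 and 13.3 in SOX9-mEGFP_spheroid, and had 74.6, 77.6 and 72.9 in SOX9-Halo_spheroid. Its difference between SOX9-Halo_spheroid and Halo-NLS (log2 fold change 4.45 ± 1.11 (SE), adjusted p = 0.0041) was lost, at an adjusted p of 0.010 to 0.017, without Halo-NLS replicate 1 or 2 or SOX9-Halo_spheroid replicate 2 or 3. Without Halo-NLS replicate 3, the control library with most Itgb8 counts, the log2 fold change was 6.67.

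Itgb5, the vitronectin receptor partner of Itgav, went the other way. Its normalized counts were 899, 1301 and 1047 in Halo-NLS, 741, 592 and 290.4 in SOX9-mEGFP_budding, 438, 570.2 and 262 in SOX9-Halo_budding, 627, 666 and 714 in SOX9-mEGFP_spheroid and 155, 197 and 157 in SOX9-Halo_spheroid, with all control libraries above all others and all SOX9-Halo spheroid libraries below all others. Itgb5 was lower in SOX9-Halo_spheroid than in Halo-NLS (log2 fold change -2.67 ± 0.34 (SE), adjusted p = 1.4e-05), in SOX9-mEGFP_spheroid (log2 fold change -1.98 ± 0.34 (SE), adjusted p = 0.00045) and in SOX9-Halo_budding (log2 fold change -1.32 ± 0.33 (SE), adjusted p = 0.0046). The last of these calls was lost, at an adjusted p of 0.014 to 0.025, without SOX9-Halo_budding replicate 1 or 2 or SOX9-Halo_spheroid replicate 1 or 3. As a share of beta subunits per length, Itgb5 made up 15.1 ± 4.21% in Halo-NLS and 0.598 ± 0.0940% in SOX9-Halo_spheroid, while Itgb6 made up 1.61 ± 0.214% and 4.68 ± 0.981%. Itgb3, the other RGD beta subunit of the set, had at most 3 counts in any library.

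Itga5, the main fibronectin receptor subunit, stayed low throughout, with 2.61, 4.59 and 20.1 normalized counts in Halo-NLS, 0, 2.08 and 6.23 in SOX9-mEGFP_budding, 3.18, 3.89 and 8.78 in SOX9-Halo_budding, 25.7, 18 and 42.9 in SOX9-mEGFP_spheroid and 19, 36.9 and 34.2 in SOX9-Halo_spheroid. It was called in 1 comparison, the rise in the SOX9-mEGFP line (log2 fold change 3.17 ± 0.77 (SE), adjusted p = 0.0055). That call was lost without SOX9-mEGFP_budding replicate 1 or 2 or SOX9-mEGFP_spheroid replicate 1 or 3 (adjusted p of 0.012 to 0.030), and the log2 fold change was 4.505 without SOX9-mEGFP_budding replicate 3. Itga2b, the platelet subunit, had means of 22.8 to 45.9 normalized counts and was called in no comparison. The 6 platelet markers, Itga2b among them, summed to 134 to 205 in SOX9-mEGFP_spheroid and to at most 82.7 elsewhere. Of these, Ppbp, Gp9 and Treml1 were under 10 in every library. Pf4 reached 10 in at least 1 library of SOX9-mEGFP_spheroid and in none of the other conditions. Gp1ba reached 10 in at least 1 library of each condition.

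Itga8 was well above 0 in 1 condition. This partner of Itgb1, known from kidney development as a receptor for nephronectin, had 2.61, 1.15 and 1.26 normalized counts in Halo-NLS, 0, 0 and 0 in SOX9-mEGFP_budding, 0.796, 0 and 0.976 in SOX9-Halo_budding and 3.55, 1 and 2.86 in SOX9-mEGFP_spheroid, against 110.2, 96.5 and 147 in SOX9-Halo_spheroid. With the other condition set to 3 counts per library, SOX9-Halo_spheroid was at least 31.7-fold higher than Halo-NLS and at least 42.9-fold higher than SOX9-Halo_budding. It was also called higher than SOX9-mEGFP_spheroid. Within the SOX9-mEGFP line Itga8 passed the test with no counts in the budding organoids and 4, 1 and 3 counts in the spheroids, so close to 0 that no fold is given, and DESeq2 did not call it (adjusted p = 0.032). Npnt, which encodes nephronectin and was picked out after its values were seen, rose in both lines, from 22.2, 27.5 and 65.4 normalized counts in Halo-NLS to 2066, 2588 and 2632 in SOX9-mEGFP_spheroid and 2989.7, 3231 and 3228 in SOX9-Halo_spheroid.

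Itga9, which with Itgb1 binds tenascin, osteopontin and the EDA segment of fibronectin, rose in steps. Its normalized counts were 9.15, 9.18 and 7.54 in Halo-NLS, 40.1, 36.3 and 21 in SOX9-mEGFP_budding, 24.7, 59.4 and 26.3 in SOX9-Halo_budding, 70.1, 87.1 and 114 in SOX9-mEGFP_spheroid and 983, 921 and 1069 in SOX9-Halo_spheroid. The 3 control libraries lay below all others, the budding organoids overlapped with each other, and the spheroids lay above both. From budding to spheroid the rise was log2 fold change 4.75 ± 0.37 (SE), adjusted p = 1.2e-07 in the SOX9-Halo line and log2 fold change 1.49 ± 0.34 (SE), adjusted p = 0.0041 in the SOX9-mEGFP line, and these rises differed by a log2 value of 3.26 ± 0.48 (SE), adjusted p = 0.00029. The call in the SOX9-mEGFP line was lost without replicate 2 or 3 of either of its conditions (adjusted p of 0.014 to 0.030). Against Halo-NLS, SOX9-Halo_budding was called (log2 fold change 2.07 ± 0.41 (SE), adjusted p = 0.0059), a call lost without replicate 2 or 3 of either condition (adjusted p of 0.010 to 0.027), and SOX9-mEGFP_budding was not (log2 fold change 1.88 ± 0.41 (SE), adjusted p = 0.011).

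The start regions of Itga8 and Itga2 are given because these subunits mark the SOX9-Halo spheroids, 1 by its presence and the other by its near absence. They follow the same RefSeq windows and capitals as the laminin regions above, with Itga8 at chr2:12301895-12302194 and Itga2 at chr13:114932051-114932350 of GRCm38.p6, both on the minus strand.
Itga8: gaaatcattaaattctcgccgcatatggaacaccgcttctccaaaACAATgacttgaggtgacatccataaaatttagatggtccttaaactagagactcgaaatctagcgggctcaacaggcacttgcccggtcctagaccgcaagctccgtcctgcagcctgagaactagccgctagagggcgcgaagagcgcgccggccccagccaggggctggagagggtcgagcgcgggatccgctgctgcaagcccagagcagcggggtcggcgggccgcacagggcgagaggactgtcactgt
Itga2: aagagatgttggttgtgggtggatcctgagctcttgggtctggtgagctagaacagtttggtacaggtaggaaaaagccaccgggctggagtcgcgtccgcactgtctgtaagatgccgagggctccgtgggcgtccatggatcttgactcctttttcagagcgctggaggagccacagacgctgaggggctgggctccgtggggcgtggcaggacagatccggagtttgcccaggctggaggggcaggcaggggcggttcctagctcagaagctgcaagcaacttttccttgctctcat
Itga8 held 1 ACAAT match, at base 46 of the window, 205 bases before the start, and Itga2 held none of the 3 motifs searched. GC content was 59% for Itga8 and 59.3% for Itga2.

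Subunits of leukocyte integrins were low. Itgam, the alpha subunit of a macrophage and granulocyte receptor, had 49.7, 44.8 and 27.7 normalized counts in Halo-NLS, 121, 80.0 and 84.9 in SOX9-mEGFP_budding, 41.4, 40.9 and 32.2 in SOX9-Halo_budding, 26.6, 24 and 6.67 in SOX9-mEGFP_spheroid and 0, 0.946 and 0 in SOX9-Halo_spheroid. With 3 counts per library as the floor, SOX9-Halo_spheroid was at least 13.4-fold lower than Halo-NLS, at least 12.6-fold lower than SOX9-Halo_budding and at least 6.31-fold lower than SOX9-mEGFP_spheroid. Itgam also fell in the SOX9-mEGFP line (log2 fold change -2.31 ± 0.43 (SE), adjusted p = 0.00083). Its obligate partner Itgb2 had at most 4 counts in any library. The leukocyte gene Ptprc reached 10 in at least 1 library of Halo-NLS, but Ptprc and Tyrobp were under 10 in every library of the SOX9 conditions. Other leukocyte markers were not: Cd68 reached 10 in at least 1 library of each condition, and Csf1r in at least 1 library of SOX9-mEGFP_spheroid. The leukocyte markers together summed to 246 to 395 in SOX9-mEGFP_spheroid and to 112 to 246 in Halo-NLS. Of the exonic bases of Itgam, 67.4% are shared with Gm49368 on the same strand, so reads there were set aside as ambiguous, and its level is uncertain.

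Itgb7, the beta subunit of gut-homing lymphocyte receptors, had 30.1, 36.7 and 57.8 normalized counts in Halo-NLS, 46.2, 28 and 21.8 in SOX9-mEGFP_budding, 26.3, 27.2 and 9.76 in SOX9-Halo_budding, 4.44, 7.01 and 5.71 in SOX9-mEGFP_spheroid and 8.29, 3.78 and 10.8 in SOX9-Halo_spheroid. It was lower than Halo-NLS in SOX9-mEGFP_spheroid (log2 fold change -2.84 ± 0.51 (SE), adjusted p = 0.00038) and SOX9-Halo_spheroid (log2 fold change -2.43 ± 0.49 (SE), adjusted p = 0.00085). The fall within the SOX9-mEGFP line (log2 fold change -2.45 ± 0.51 (SE), adjusted p = 0.0018) was lost without SOX9-mEGFP_spheroid replicate 1 (adjusted p = 0.011). Its alpha partners were lower still, with at most 12 counts of Itga4 in any library and means of 5.95 to 15.0 normalized counts of Itgae by condition. Itgal had means of 7.14 to 15.0, Itgad at most 4 counts in any library, and Itgax none in any library, which allows up to 3 counts per library.

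**Figure D3:**
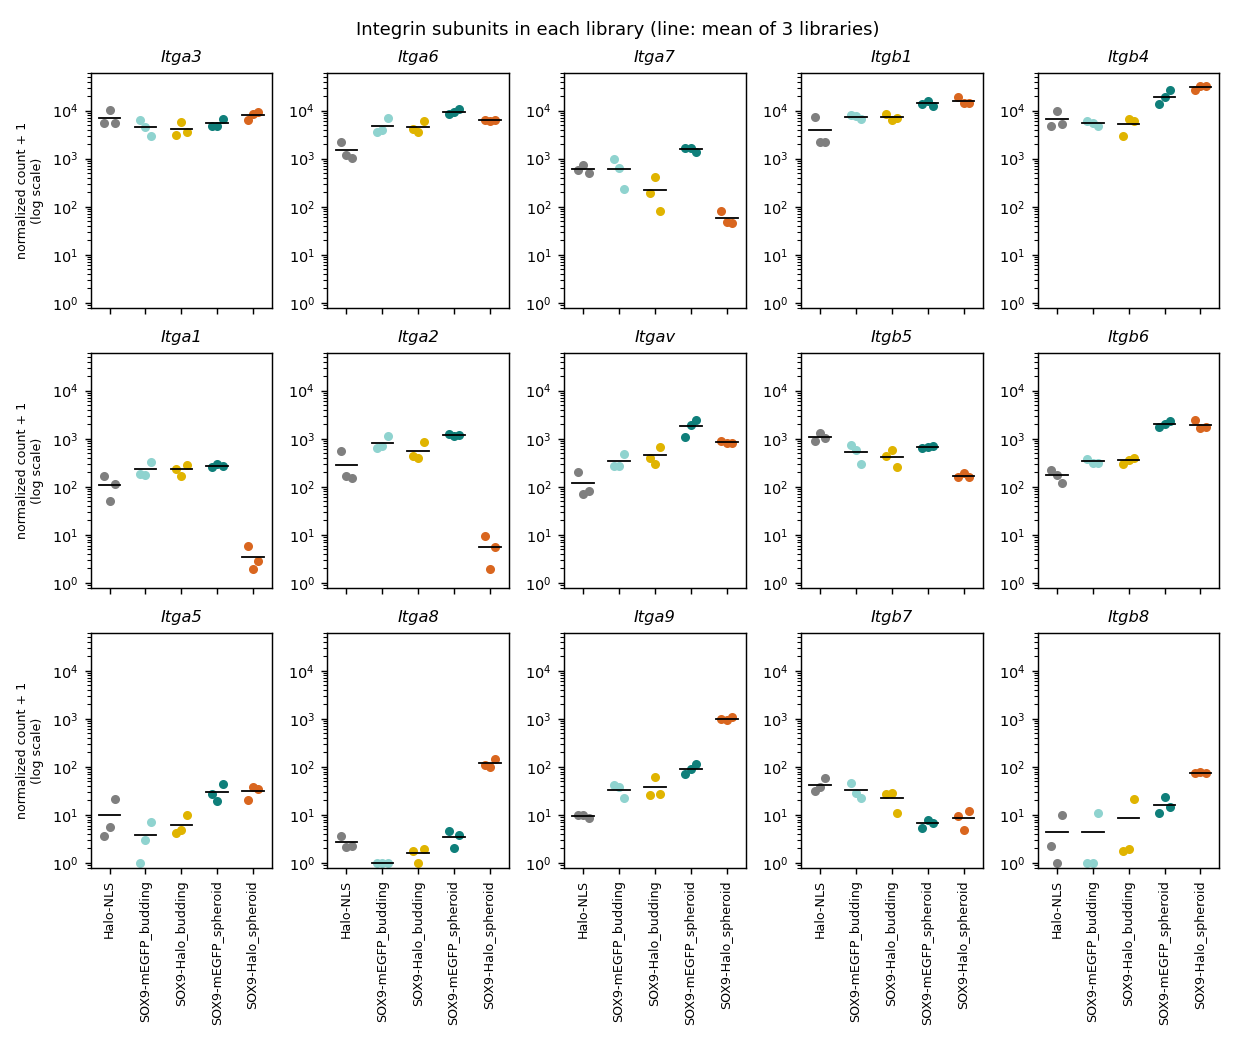
Normalized counts, with 1 added, of 15 integrin subunits on a log axis, with 1 point per library, 3 libraries per condition and a line at the mean. In the top row, laminin receptor subunits, Itgb1 and Itgb4 are highest in the spheroids and Itga7 moves apart between the lines. Itga1 and Itga2 are under 10 in SOX9-Halo_spheroid alone, and Itga8 is at 96.5 or more there and at 3.55 or less elsewhere.

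Between the budding organoids of the SOX9 lines no member was called, in SOX9-Halo_budding against SOX9-mEGFP_budding by edgeR's quasi-likelihood test, where 0.29% of all tested genes were called higher and 0.165% lower (0.456% in either direction), and none by DESeq2. At an unadjusted p under 0.05 there were 3 members, and 1 of 28 had no overlap between the conditions, where 12% of all genes had none. The standard errors of these log2 differences were 0.25 to 0.57 for the members with a mean over 100 normalized counts. Differences under 1 on the log2 scale could not be called by the threshold on fold change, and larger ones could be missed. Itga7, for example, was not called at log2 fold change -1.44 ± 0.52 (SE), adjusted p = 0.32.

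The spheroids differed more between the lines. Against SOX9-mEGFP_spheroid, SOX9-Halo_spheroid had 2 members called higher, Itga8 and Itga9, and 6 lower, Lamb1, Itga1, Itga2, Itga7, Itgam and Itgb5, where 3.59% of all genes were called higher and 9.58% lower, 13.2% in all. The conditions did not overlap for 13 members, and for 48.6% of all genes. The called members include 1 laminin and 7 of 20 tested integrins. By the interaction contrast, 5 members changed to a different extent in each line (7.39% of all genes), 1 with a larger value in the SOX9-Halo line (Itga9, 1.81% of all genes) and 4 with a smaller one (Lamb1, Itga1, Itga2 and Itga7, 5.58% of all genes). On the other hand, Itga9, Itgb4, Itgb6, Lama3, Lama4, Lama5, Lamb2 and Lamc1 were called higher in both spheroid lines against Halo-NLS and against their own budding organoids. Since the spheroid lines carry different tags and H2B transgenes, line, tag and H2B transgene cannot be told apart. The paper also places SOX9-mEGFP_spheroid before SOX9-Halo_spheroid in passage number and in progress toward the round shape. Time in culture and stage of the change therefore cannot be told apart from the line either.

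**Figure D4:**
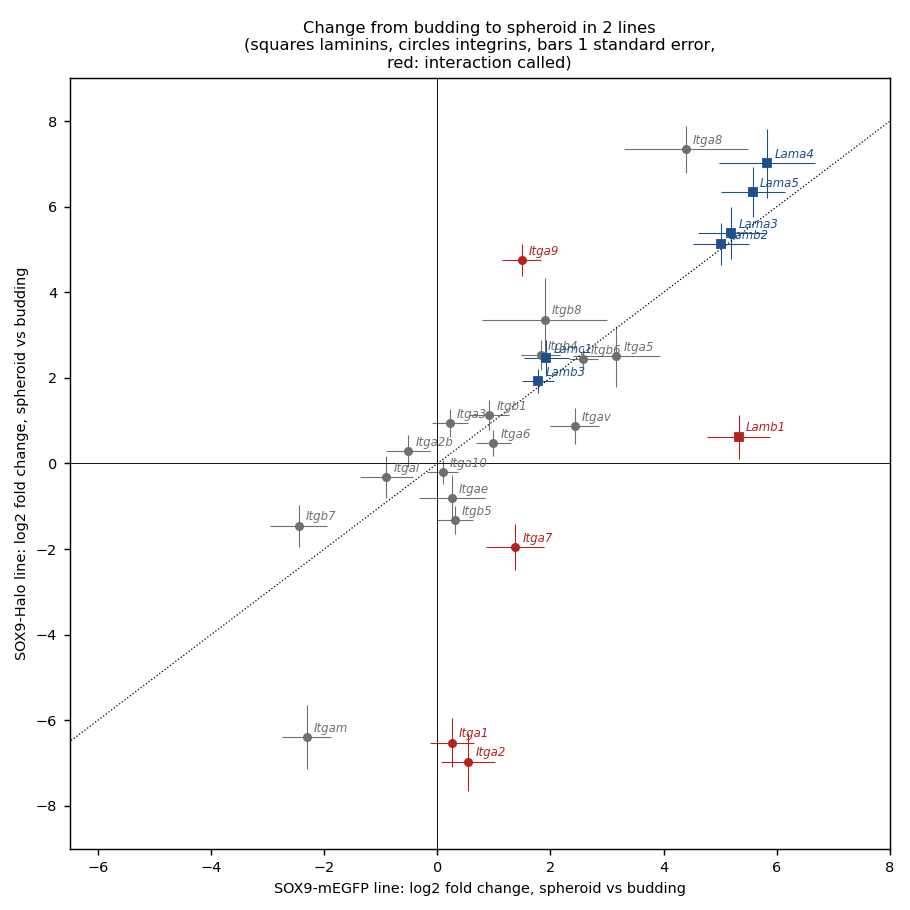
Log2 fold change from budding organoids to spheroids of 27 tested members, with the SOX9-mEGFP line on the x axis and the SOX9-Halo line on the y axis, squares for laminins, circles for integrins, bars of 1 standard error and a dotted line of equal change. The 6 laminins other than Lamb1 rise on both axes, while Lamb1 lies at 5.33 on the x axis and 0.62 on the y axis, and the members in dark red, Lamb1, Itga1, Itga2, Itga7 and Itga9, are those called by the interaction contrast. Itga8 and Itgam had conditions at or near 0, so their positions depend on the fit.

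Other parts of the adhesion machinery were read from lists. Of 30 other integrin ligands, 29 were listed in the files and 16 were tested, and against Halo-NLS 10 were called higher and 1 lower in SOX9-Halo_spheroid and 9 higher and 1 lower in SOX9-mEGFP_spheroid, with medians of 2.38 and 1.61 on the log2 scale. In these comparisons 13.6% of all tested genes were called higher and 15.3% lower in SOX9-Halo_spheroid, 15.3% higher and 12.1% lower in SOX9-mEGFP_spheroid, and the medians of all tested genes were -0.01 and 0.03. The most abundant were Cdh1, Mfge8 and Spp1. Cdh1, the E-cadherin bound by the Itgae receptor, was called in no comparison. Mfge8, a ligand of Itgav receptors, was higher in SOX9-Halo_spheroid (log2 fold change 1.29 ± 0.24 (SE), adjusted p = 0.00046) and SOX9-mEGFP_spheroid (log2 fold change 1.91 ± 0.25 (SE), adjusted p = 2.2e-05). Spp1, osteopontin, a ligand of Itgav and Itga9 receptors, went from 3.92, 2.29 and 18.9 normalized counts in Halo-NLS to 416, 631 and 907 in SOX9-Halo_spheroid and 27279, 17772 and 22838 in SOX9-mEGFP_spheroid, and its change differed between the lines (log2 value -5.33, adjusted p = 0.0022). Fn1, fibronectin, and Thbs1, thrombospondin, picked out after their values were seen, were also higher in SOX9-mEGFP_spheroid (log2 fold change 4.25 ± 0.69 (SE), adjusted p = 0.00018 and log2 fold change 6.95 ± 0.63 (SE), adjusted p = 8.7e-07). Both genes were likewise called higher in SOX9-Halo_spheroid against Halo-NLS, and from budding to spheroid in either line.

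Of 18 basement membrane partners of laminin, 15 were tested, with 4 higher and 3 lower in SOX9-Halo_spheroid and 7 higher and 3 lower in SOX9-mEGFP_spheroid against Halo-NLS (13.6%, 15.3%, 15.3% and 12.1% of all tested genes, in that order), and medians of 0.82 and 0.74 on the log2 scale. The collagen IV genes Col4a1, Col4a2 and Col4a5 were among the higher in both. Agrn, agrin, rose within the SOX9-Halo line (log2 fold change 1.77 ± 0.39 (SE), adjusted p = 0.0019). Lman1, a cargo receptor of the secretory pathway, was higher in SOX9-mEGFP_spheroid (log2 fold change 1.504 ± 0.28 (SE), adjusted p = 0.00051). Smoc2, a matricellular protein found in the intestinal stem cell zone, was lower in SOX9-Halo_spheroid (log2 fold change -4.15 ± 0.77 (SE), adjusted p = 0.00041) and SOX9-mEGFP_spheroid (log2 fold change -5.59 ± 0.83 (SE), adjusted p = 7.7e-05). The nidogens, which link laminin to collagen IV, were not called higher in any comparison: Nid1 had at most 33.3 normalized counts in any library, and Nid2 was lower in SOX9-Halo_spheroid (log2 fold change -4.73 ± 0.43 (SE), adjusted p = 4.6e-07), at 7.11, 24.6 and 6.30 against 448, 399 and 576 in SOX9-mEGFP_spheroid. The collagen IV genes and nidogens were picked out after their values were seen.

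All 14 hemidesmosome and laminin receptor partners were tested, with 4 higher and 2 lower in SOX9-Halo_spheroid and 2 higher and none lower in SOX9-mEGFP_spheroid against Halo-NLS, where the shares of all tested genes were 13.6%, 15.3%, 15.3% and 12.1%, so that the 2 of 14 in SOX9-mEGFP_spheroid were near the share of all genes. The medians were 0.23 and 0.55 on the log2 scale. The most abundant, Bsg, Dag1 and Rpsa, were called in no comparison. Cd44 was called higher in every comparison of a SOX9 condition with Halo-NLS and Cd9, a tetraspanin, in both spheroid lines. The plakin Dst, which links Itgb4 to keratin in hemidesmosomes, was lower in SOX9-Halo_spheroid (log2 fold change -1.51 ± 0.30 (SE), adjusted p = 0.00075), where Itgb4 was highest, and Col17a1, the hemidesmosomal collagen, had at most 28.9 normalized counts in any library. Cd44, Cd9, Dst and Col17a1 were picked out after their values were seen.

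Of 34 integrin adaptors and focal adhesion genes, 29 were tested, with 8 higher and 3 lower in SOX9-Halo_spheroid and 10 higher and 3 lower in SOX9-mEGFP_spheroid against Halo-NLS, and medians of 0.21 and 0.64 on the log2 scale. The shares of all tested genes were again 13.6% and 15.3%, then 15.3% and 12.1%, with medians of -0.01 and 0.03. Among the most abundant, Actn4 was called in no comparison and Pxn was lower in SOX9-Halo_spheroid (log2 fold change -1.03 ± 0.25 (SE), adjusted p = 0.0034). The kindlins, which activate integrins through the beta subunit and were picked out after their values were seen, differed between the lines. Fermt1, the epithelial kindlin, had 2206, 2209 and 1751 normalized counts in Halo-NLS, 4720.4, 4579 and 5054 in SOX9-mEGFP_spheroid and 1625, 1715 and 1550.3 in SOX9-Halo_spheroid. Fermt2, found mainly in mesenchymal cells, had 1.31, 1.15 and 11.3 in Halo-NLS, 17.7, 14 and 36.2 in SOX9-mEGFP_spheroid and 627, 704 and 751 in SOX9-Halo_spheroid. The interaction contrast of the lines was called for Fermt1 (log2 value -1.46, adjusted p = 0.00056) and Fermt2 (6.15, adjusted p = 0.0013). Of 18 genes of integrin activation and trafficking, 17 were tested, with 1 higher and 3 lower in SOX9-Halo_spheroid and 4 higher and 1 lower in SOX9-mEGFP_spheroid. In either direction, 4 and 5 of 17 were called, near the 28.9% and 27.5% of all tested genes, and the medians were 0.07 and 0.61 on the log2 scale. The most abundant, Arf6, Crk and Rab25, were called in no comparison.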

How the data were processed

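Poly-A RNA of 15 organoid cultures, 3 for each of 5 conditions, was sequenced. Per the labels and the study's methods, the authors trimmed reads with cutadapt 4.5, mapped them uniquely to mm39 (GRCm39) using STAR, and then counted reads in genes with HTSeq 2.0.2 without regard to strand. The deposited values are these raw counts, 1 column per library, and reads that fit several genes (9.65% to 13.6%) or no gene (1.83% to 6.09%) were left out here. Depth was 28062722 to 40559766 counts per library, with a median of 33491297, and counting floors of 3 counts cover counting error only.

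Counts were tested with edgeR 4.0.16 in R 4.3.3 (quasi-likelihood F test, TMM scaling, filterByExpr) in 1 fit of all libraries, with Benjamini-Hochberg adjustment over 17560 genes. All adjusted p-values come from this test unless another tool is named. A gene was called at adjusted p up to 0.01 with a fold of 2 or more and 10 or more normalized counts on average. Standard errors were obtained from F, as the absolute log2 change over its root. The interaction contrast is the change from budding to spheroid in the SOX9-Halo line minus that in the SOX9-mEGFP line. The code was tested on simulated data. Levels per length used canonical transcripts of the GRCm39 annotation, with the union of exons as an alternative. Alternatives were DESeq2 1.42.0 and other scalings, filters, thresholds, library subsets and a replicate block.

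Named genes were all members with a mean of at least 10 normalized counts, with values in every library for those called between any pair of conditions, and the 3 most abundant genes of each list. Of these, 1 member and 1 list gene are not reported here by name, although counts over the whole module and lists include them. Members and lists were chosen with earlier results of these data known. Same-numbered libraries of SOX9-Halo_budding and SOX9-Halo_spheroid deviated together over 11054 genes (r = 0.403, 0.234 and 0.344), and this was the 1 of 10 pairs of conditions where every r was over 0.1, so the block was also fitted within that line, a choice made after seeing the data.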

Additional observations from a re-analysis of the deposited data

Results flagged for a closer look

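By the interaction contrast, 5 members changed to a different extent from budding organoids to spheroids in the SOX9 lines. The change in the SOX9-Halo line minus that in the SOX9-mEGFP line was, on the log2 scale, -4.71 ± 0.73 (SE), adjusted p = 0.00042 for Lamb1. For Itga2 it was -7.52 ± 0.82 (SE), adjusted p = 1.9e-05. For Itga1 it was -6.78 ± 0.70 (SE), adjusted p = 1.2e-05. For Itga7 it was -3.33 ± 0.74 (SE), adjusted p = 0.007, and this call was lost at an adjusted p of 0.012 to 0.024 when 1 of 9 libraries was left out, with a log2 value of -2.58 without SOX9-Halo_budding replicate 2. For Itga9 it was 3.26 ± 0.48 (SE), adjusted p = 0.00029.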

How the results depend on the processing

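Of 84 called gene values, 68 were kept under every alternative and none changed direction. RLE size factors, library sizes alone and the replicate block over all libraries lost 0 of them, DESeq2 and the fit without a low-count filter 1 each, the fit of only the libraries compared 10, and leaving out 1 library 2 to 7. The 10 calls were those of Itga2, Itgb1 and Lamb3 in SOX9-mEGFP_spheroid, of Itga6 in both budding lines and of Itga9 in SOX9-Halo_budding against Halo-NLS, of Itga7 and Itgb5 within the SOX9-Halo line, of Itga9 within the SOX9-mEGFP line and of the Itga7 interaction (adjusted p of 0.010 to 0.081). Library sizes alone moved the median of all genes against Halo-NLS to between 0.269 and 0.308 on the log2 scale.

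The counts of members called in the budding organoids depended most on the setting. Against Halo-NLS, those higher in SOX9-Halo_budding were 2, and 5 with library sizes alone, 4 without a filter, 4 at an adjusted p of at most 0.05, 0 with only the libraries compared and 0 to 6 when 1 library was left out. Those lower were 0, and 3 without a filter, 2 with DESeq2, 2 with the replicate block, 2 at an adjusted p of at most 0.05 and 0 to 2 when 1 library was left out. Those higher in SOX9-mEGFP_budding were 1, and 3 with library sizes alone, 5 without a filter, 3 with DESeq2, 4 at an adjusted p of at most 0.05, 0 with only the libraries compared and 0 to 5 when 1 library was left out. Itga9 was among those gained, with an adjusted p of 0.0019 by DESeq2.

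Those lower in SOX9-Halo_spheroid than in SOX9-Halo_budding were 5, and 3 with only the libraries compared and 3 to 6 when 1 library was left out. Those lower in SOX9-mEGFP_spheroid than in SOX9-mEGFP_budding were 2, and 1 to 2 when 1 library was left out. Those lower in SOX9-Halo_budding than in SOX9-mEGFP_budding were 0, and 1 without a filter. Those higher in SOX9-Halo_spheroid than in SOX9-mEGFP_spheroid were 2, and 4 without a filter or with only the libraries compared. Lama4 was among those gained, with an adjusted p of 0.004 by DESeq2. The causes were not tested.

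Uncalled differences that changed sign when 1 library was left out were those of Itgb4 in SOX9-Halo_budding (log2 -0.56 to 0.072) and SOX9-mEGFP_budding (log2 -0.45 to 0.14) against Halo-NLS, of Lama5 between the spheroids (log2 -0.20 to 0.55) and of the Lamb2 interaction (log2 -0.33 to 0.54).

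Of 30 same-numbered pairs of libraries, 17 had a correlation of deviations over 0.1, with r from -0.32 to 0.817 over all pairs. With 3 libraries per condition, these values do not settle whether the numbers pair the libraries outside the SOX9-Halo line. With the replicate block within the SOX9-Halo line, 1 call, that of Itga7, was lost.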
